A study of Mus musculus with 24 samples.

Results

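Day 8 after the last weekly prednisone injection was compared with vehicle in male quadriceps myofibers, using 1 list of H3K27ac peaks per group. The peaks on the 19 autosomes were the members, 87199 in the vehicle list and 20355 in the day 8 list. These 107554 peaks were part of 462829 autosomal peaks in the 8 lists of the series. A vehicle peak was called kept when it shared 1 bp or more with a day 8 peak and lost when it shared none. A day 8 peak with no overlap was called gained. Both groups were male mice, C57BL/6 in the labels and C57BL/6J in the methods of the study, 10 weeks old at onset. One group was given 1 mg/kg prednisone by i.p. injection once a week for 4 weeks, 5 injections in all, with vehicle on the other days. The other group was given DMSO vehicle, and its day of collection is not given in the labels. Quadriceps myofibers were separated with collagenase II and a strainer, so blood vessel, nerve and connective tissue cells that stay attached to fibers could also contribute. Each group had 2 H3K27ac libraries and 1 input library, behind a single deposited peak list.

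H3K27ac is acetylation of lysine on the tail of histone H3. It lies on nucleosomes beside active promoters and active enhancers, and its loss accompanies their silencing. Prednisone is converted to prednisolone, which activates the glucocorticoid receptor, a nuclear receptor that binds DNA at glucocorticoid response elements. In skeletal muscle this receptor is known to act on genes of protein breakdown, fuel use and the circadian clock. The comparison asks which acetylated regions remained, appeared or disappeared about a week after exposure.

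Sequences of 6 promoters and 4 distal peak centers are shown to let a reader see what kind of DNA was kept, lost and gained. Promoters run from 250 bases before to 50 bases after the RefSeq start, and distal windows are the central 300 bases of the peak on the plus strand. Coordinates are of GRCm38.p6 (mm10). Capitals mark matches to the motifs searched on either strand: the glucocorticoid receptor half-site pair ACANNNTGT, the E-box CAGCTG bound by myogenic factors such as MyoD, AP-1 TGANTCA, ETS CCGGAA, SP/KLF GGGCGG and MEF2. Mstn and Acvr2b encode myostatin and its receptor and had a promoter peak only in the day 8 list. The Mstn day 8 peak began at 53061655, so only the end of the Mstn window lay in the peak. The AP-1 match marked there lay outside it. Klf9, a glucocorticoid-induced transcription factor, and Cry1, a circadian repressor, kept theirs. Flt1, a VEGF receptor, and Emcn, the endothelial sialomucin endomucin, lost theirs.
Mstn promoter, gained, chr1:53061390-53061689, plus strand: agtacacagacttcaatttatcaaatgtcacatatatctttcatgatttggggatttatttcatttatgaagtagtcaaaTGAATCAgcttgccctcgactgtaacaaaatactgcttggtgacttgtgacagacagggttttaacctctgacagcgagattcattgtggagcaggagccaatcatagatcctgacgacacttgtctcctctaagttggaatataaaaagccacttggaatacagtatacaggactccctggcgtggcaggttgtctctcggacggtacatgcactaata
Acvr2b promoter, gained, chr9:119401928-119402227, plus strand: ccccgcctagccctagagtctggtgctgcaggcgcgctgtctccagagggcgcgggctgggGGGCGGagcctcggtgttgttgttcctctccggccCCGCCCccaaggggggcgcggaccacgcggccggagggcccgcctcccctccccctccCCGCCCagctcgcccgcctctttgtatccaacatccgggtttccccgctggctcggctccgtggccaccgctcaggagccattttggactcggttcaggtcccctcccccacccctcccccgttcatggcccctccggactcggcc
Klf9 promoter, kept, chr19:23140976-23141275, plus strand: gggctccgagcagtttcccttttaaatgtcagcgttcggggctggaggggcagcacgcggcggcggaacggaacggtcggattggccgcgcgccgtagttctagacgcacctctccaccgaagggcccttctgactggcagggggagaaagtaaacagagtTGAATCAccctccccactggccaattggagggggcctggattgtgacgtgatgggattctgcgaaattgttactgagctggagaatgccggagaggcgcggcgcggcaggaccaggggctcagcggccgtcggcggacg
Cry1 promoter, kept, chr10:85185005-85185304, minus strand: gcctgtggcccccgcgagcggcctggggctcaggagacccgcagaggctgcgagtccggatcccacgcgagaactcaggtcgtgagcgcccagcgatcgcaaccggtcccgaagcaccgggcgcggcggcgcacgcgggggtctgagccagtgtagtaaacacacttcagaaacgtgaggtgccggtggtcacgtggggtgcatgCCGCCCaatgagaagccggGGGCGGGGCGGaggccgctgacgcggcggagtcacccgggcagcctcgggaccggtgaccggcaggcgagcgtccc
Flt1 promoter, lost, chr5:147725962-147726261, minus strand: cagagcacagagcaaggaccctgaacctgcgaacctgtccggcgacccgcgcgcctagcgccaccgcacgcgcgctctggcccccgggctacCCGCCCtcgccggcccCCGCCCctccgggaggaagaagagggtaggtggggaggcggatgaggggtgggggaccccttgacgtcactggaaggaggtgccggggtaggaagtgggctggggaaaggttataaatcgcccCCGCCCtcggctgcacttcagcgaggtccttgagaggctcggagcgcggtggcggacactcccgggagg
Emcn promoter, lost, chr3:137340828-137341127, plus strand: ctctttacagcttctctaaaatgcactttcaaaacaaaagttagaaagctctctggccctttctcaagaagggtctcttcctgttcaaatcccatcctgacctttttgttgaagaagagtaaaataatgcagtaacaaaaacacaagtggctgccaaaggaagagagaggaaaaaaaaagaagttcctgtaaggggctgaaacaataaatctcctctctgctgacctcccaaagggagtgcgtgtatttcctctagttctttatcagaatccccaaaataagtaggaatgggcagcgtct
Ogdhl intron, gained peak center, chr14:32326531-32326830: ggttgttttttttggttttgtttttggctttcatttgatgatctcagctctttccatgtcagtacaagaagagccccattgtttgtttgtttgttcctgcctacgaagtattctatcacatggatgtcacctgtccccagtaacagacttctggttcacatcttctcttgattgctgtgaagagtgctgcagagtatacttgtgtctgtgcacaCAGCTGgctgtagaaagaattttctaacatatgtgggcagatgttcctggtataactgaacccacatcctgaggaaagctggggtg
Intergenic near Hjurp, gained peak center, chr1:88290772-88291071: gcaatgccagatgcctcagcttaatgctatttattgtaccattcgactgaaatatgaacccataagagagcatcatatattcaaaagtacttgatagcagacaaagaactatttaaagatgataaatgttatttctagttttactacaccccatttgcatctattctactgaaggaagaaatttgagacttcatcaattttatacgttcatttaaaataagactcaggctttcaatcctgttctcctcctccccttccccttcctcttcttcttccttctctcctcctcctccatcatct
Ifngr1 intron, lost peak center, chr10:19592199-19592498: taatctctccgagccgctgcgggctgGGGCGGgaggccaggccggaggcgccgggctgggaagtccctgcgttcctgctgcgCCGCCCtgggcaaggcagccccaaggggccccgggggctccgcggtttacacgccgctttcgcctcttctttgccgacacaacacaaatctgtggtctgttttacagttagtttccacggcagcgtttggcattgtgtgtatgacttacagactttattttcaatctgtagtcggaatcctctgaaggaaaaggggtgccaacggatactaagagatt
Intergenic near Dgkz, lost peak center, chr2:91971328-91971627: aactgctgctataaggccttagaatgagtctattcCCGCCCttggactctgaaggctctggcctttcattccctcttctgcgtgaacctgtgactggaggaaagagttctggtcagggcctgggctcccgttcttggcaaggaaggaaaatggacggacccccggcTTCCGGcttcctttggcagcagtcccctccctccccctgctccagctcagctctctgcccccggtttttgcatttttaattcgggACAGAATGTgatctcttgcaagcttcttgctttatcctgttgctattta
The GC content of the 4 distal windows was 43.0% (Ogdhl) and 36.7% (Hjurp) for the gained peaks and 58.3% (Ifngr1) and 53.3% (Dgkz) for the lost peaks. The promoter windows did not follow this order. They had 41.3% (Mstn) and 73.3% (Acvr2b) for gained, 63.3% (Klf9) and 72.3% (Cry1) for kept, and 70.7% (Flt1) and 41.0% (Emcn) for lost. The Ifngr1 window, distal by the class of its center, lay only 0.4 kb from a start. As a gene, Ifngr1 counted as keeping a promoter peak, though its peaks shared no base between the lists. No match to the glucocorticoid receptor motif lay in the 6 promoter windows, and 1 lay in the Dgkz window. Among all 31365 RefSeq promoters of this length on autosomes, 6.90% held that motif, 36.0% held GGGCGG, 16.3% CAGCTG, 15.1% CCGGAA, 7.85% TGANTCA and 0.568% MEF2.

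The lists rested on nearly the same number of H3K27ac tags, 31.6 M for vehicle and 32.1 M for day 8, worked out from the steps of the deposited tag counts. Input depth was 26.2 and 19.6 M tags. Tags in autosomal peaks made up 18.1% of all vehicle tags and 5.93% of all day 8 tags. A single region of chromosome 2 with very high signal held 0.793% and 2.79% of them, so the other autosomal peaks held 17.3% of vehicle tags and 3.14% of day 8 tags. The lowest findPeaks score, a tag number that HOMER assigns to a peak, was 9 in the vehicle list and 15 in the day 8 list. Peaks of 500 bp, the smallest size called, held a median of 37.9 tags in vehicle and 22.0 tags at day 8, or 3.89 and 1.33 tags per unit of score, so scores were compared only within a list. An input count of 0 was found for 0.135% of vehicle peaks and 6.30% of day 8 peaks. These differences cannot be told apart from treatment, since each group had a single list. No replicate error or test was therefore available, and the Wilson 95% confidence intervals (CIs) given here cover counting error only.

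Most vehicle peaks had no counterpart at day 8. Of the 87199 vehicle peaks, 10447 were kept (12.0%, 95% CI 11.8%–12.2%) and 76752 were lost (88.0%). Of the 20355 day 8 peaks, 10772 overlapped a vehicle peak and 9583 were gained (47.1%, 46.4%–47.8%). By length, 14.5% of the vehicle peak sequence lay in day 8 peaks and 56.8% of the day 8 peak sequence lay in vehicle peaks. With both lists limited to the 20355 peaks of highest score in each list, 6291 vehicle peaks were kept (30.9%, 30.3%–31.5%) and 13762 day 8 peaks were gained (67.6%, 67.0%–68.2%). Both the kept and the gained share were thus higher in lists of equal length. The day 8 list already had that length, so only the vehicle list was shortened, and the gained share could not fall.

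**Figure D1:**
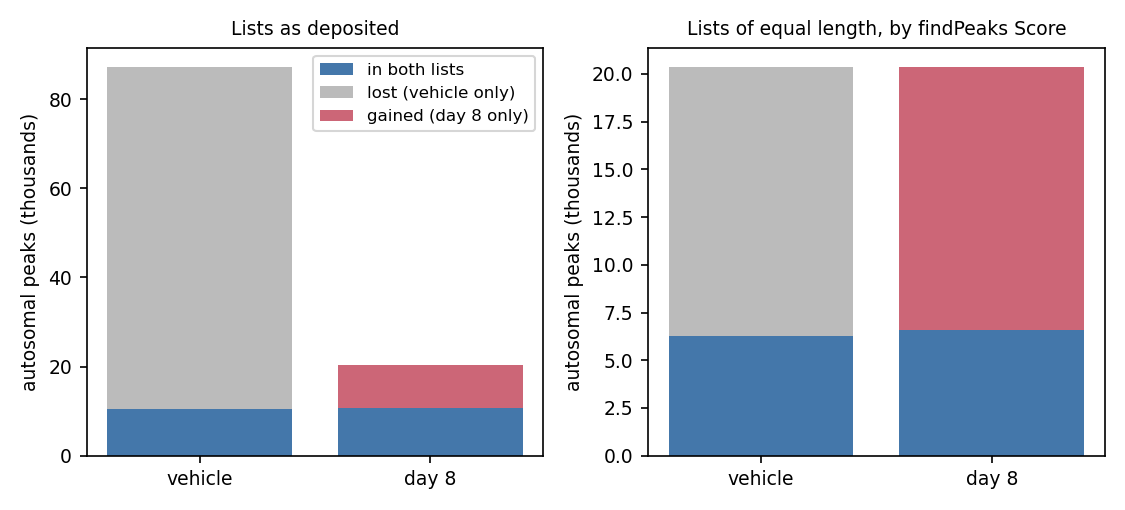
Number of autosomal peaks in each list, with peaks found in both lists in blue, vehicle-only peaks in gray and day 8–only peaks in red, for the lists as deposited (left) and limited to 20355 peaks each (right). The 76752 lost peaks fill most of the vehicle bar, and gained peaks make up 47.1% of the day 8 bar as deposited and 67.6% at equal length.

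Kept peaks were wider and held more tags than the lost or gained peaks of the same list. The median width was 1317 bp for kept vehicle peaks, 500 bp for lost peaks and 500 bp for gained peaks. Of the gained peaks, 84.7% had exactly the minimum width. Median normalized tags were 39.2 in kept and 13.3 in lost vehicle peaks, and 14.7 in kept and 6.86 in gained day 8 peaks. Fold over input did not follow this order at day 8, with medians of 4.42 in kept and 6.43 in gained peaks. An input count of 0 was found for 0.771% of kept and 12.5% of gained day 8 peaks. Among the 242 vehicle peaks of 5 kb or more, 238 were kept (98.3%, 95.8%–99.4%), and of the 51 day 8 peaks of that size none was gained, which by the Wilson interval allows up to 7.005%. The widest vehicle peak, 19.2 kb at Nfic, encoding a nuclear factor I protein, was covered to 84.0% by 4 day 8 peaks. Those at Mknk2 (17.7 kb), which encodes a MAP kinase–interacting kinase, and at Mef2d (16.7 kb), a muscle transcription factor, were covered to 80.2% and 71.1%. The broad peak at Notch1, a receptor of cell-cell signaling, was covered to 8.29%. The 4 lost peaks of this size were nearest to Coq8a, Pla2g4e, Ccdc97 and Hic1. The broad peaks named were chosen after their values were seen, and all had input tags above the 99th percentile of their list.

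Kept regions also carried fewer tags at day 8. In 9520 pairs of 1 vehicle peak and 1 day 8 peak, the median normalized tag count, scaled to 10 M tags, was 38.0 in vehicle and 14.3 at day 8. The median log2 ratio of day 8 to vehicle was -1.19 (quartiles -1.79 and -0.67). The day 8 peak was the narrower one in 6511 pairs and the wider one in 2345. Fold over input was higher at day 8 in 38.4% of pairs, with medians of 5.20 in vehicle and 4.44 at day 8.

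Promoters were kept far more often than distal regions, the peaks centered in introns or between genes. A promoter ran from 1 kb before to 100 bp after a start, and a peak was classed by its center. Of 5931 vehicle promoter peaks, 55.0% were kept (53.7%–56.2%), compared with 20.2% in exons, 9.83% in introns and 4.56% of 28859 intergenic peaks (4.33%–4.81%). Promoters therefore made up 31.2% of kept vehicle peaks, 3.48% of lost peaks and 3.62% of gained peaks (3.27%–4.01%), and 1.22% of the autosomal genome. Introns held 51.7% of lost and 47.2% of gained peaks. Intergenic sequence held 35.9% of lost peaks, 43.2% of gained peaks and 58.0% of the genome. The median distance from the peak center to the nearest protein-coding start was 0.679 kb for kept, 25.4 kb for lost and 42.4 kb for gained peaks. At equal length, promoters made up 35.4% of kept, 6.77% of lost and 9.85% of gained peaks.

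The kept share was higher among peaks with more vehicle tags in each class. In the lowest decile of vehicle peaks by normalized tag count (3.16–9.49), 15.0% of promoter peaks were kept (11.5%–19.3%), against 2.42% of intronic and 1.23% of intergenic peaks. In the highest decile these shares were 87.2% (85.8%–88.5%), 58.5% (57.0%–60.1%) and 54.3% (51.5%–57.1%). Promoter peaks were thus kept more often than distal peaks of the same tag range, with intervals that did not overlap in the lowest and highest deciles. By findPeaks score, 4.81% of vehicle peaks at score 9 and 92.1% at scores 25–29 were kept. Seen from the day 8 list, 23.5% of peaks at score 15 and 97.5% at scores of 30 or more overlapped a vehicle peak.

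**Figure D2:**
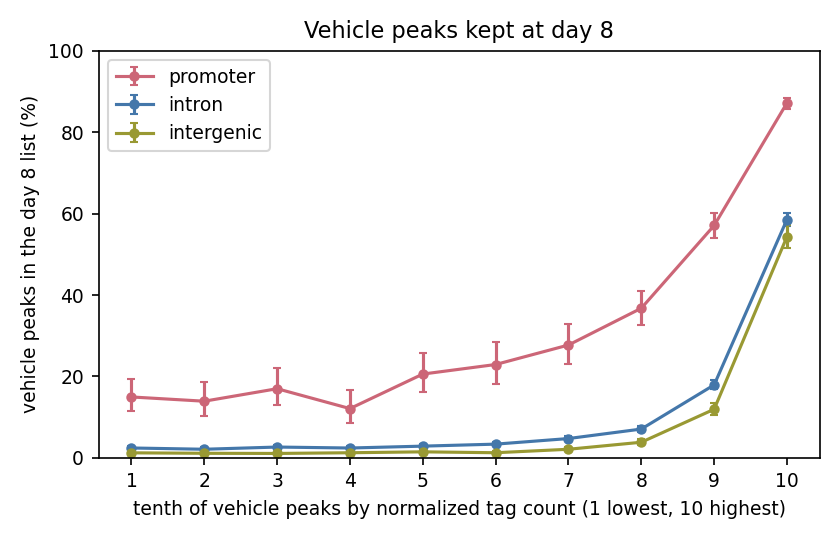
Percentage of vehicle peaks overlapped by a day 8 peak (vertical axis) in each decile of vehicle peaks by normalized tag count (horizontal axis), for promoter, intron and intergenic peaks, with Wilson 95% CIs as bars. Promoter peaks rise from 15.0% to 87.2%, and intergenic peaks rise from 1.23% to 54.3%.

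At the level of genes, 10070 of 20021 autosomal protein-coding genes had a promoter peak in vehicle and 6579 had one at day 8. Of the former, 6078 kept a promoter peak (60.4%, 59.4%–61.3%) and 3992 lost it (39.6%). Of the 9951 genes without a vehicle promoter peak, 501 gained one (5.03%). Of the 6078 kept genes, 144 (2.37%) had promoter peaks that shared no base between the lists, at different starts of the gene or apart at the same start. At equal length, 70.5% kept and 16.6% gained one. The kept promoters with the highest vehicle scores were those of Hsp90ab1, a chaperone that holds the unliganded glucocorticoid receptor, and Crem, a cAMP-responsive repressor, followed by Cilk1, Fbxo9, Septin7, Nbn, AI597479 and Tgfbrap1. Hsp90ab1 held 165.7 normalized tags in vehicle (score 65) and 100.7 at day 8 (score 18). Its vehicle peak lay on chromosome 17 from 45572688 to 45576343. Cilk1 and Fbxo9, and likewise AI597479 and Tgfbrap1, are divergent neighbors whose windows touch the same peak. The lost promoters with the highest vehicle scores included those of Pmf1, Slc46a3, Ndufa10, Cops7b, Pde6d, Rpl18 and Tmem218. Slc46a3, a lysosomal transporter, held 60.4 tags in vehicle, and its nearest day 8 peak was 13.8 kb away. Pmf1 held 49.7 tags, with a day 8 peak 0.050 kb outside its window.

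Promoter peaks described as gained often lay beside an acetylated region that was already present in vehicle. For 256 of the 501 gained promoters (51.1%), a vehicle peak lay within 1 kb of the promoter window. A vehicle peak lay within the gene or 10 kb around it for 450 of the 501, and for 16288 of all 20021 genes. For the 3992 lost promoters, a day 8 peak lay within 1 kb in 565 cases (14.2%). The 51.1% and 14.2% are not on one footing, since the vehicle list held 87199 peaks and the day 8 list 20355. The gained promoters with the highest day 8 scores were those of Itprid2, Fancm, Slc25a33, Oma1, Ttll4, Id1, Ap2m1 and Kdm6b, and the nearest vehicle peak lay between 0.007 kb (Slc25a33) and 0.725 kb (Id1) away in all 8. Slc25a33, a mitochondrial pyrimidine nucleotide carrier, held 35.8 tags at day 8 on chromosome 4 from 149773467 to 149775133. Kdm6b, a demethylase of the repressive mark H3K27me3, held 27.1 tags on chromosome 11 from 69415307 to 69417036. In genes with 1 annotated start, peaks of both lists covered kept promoters most often 0.1 kb after the start, in 91.1% (vehicle) and 86.2% (day 8) of 4573 genes. In the 407 gained promoters of this kind, the vehicle coverage was highest 0.6 kb after the start, in 44.7% of genes, while day 8 coverage was highest 0.1 kb after it, in 72.7%. The absence of vehicle peaks across the promoter window itself follows from the definition.

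**Figure D3:**
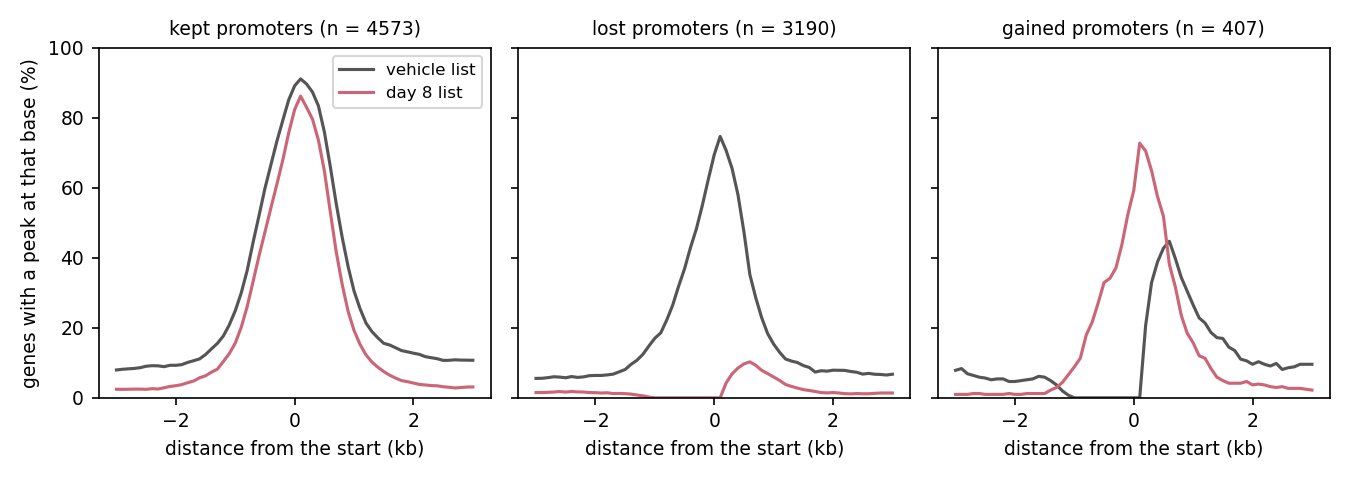
Percentage of genes with a peak at each distance from the transcription start (kb, negative before the start) in the vehicle list (gray) and the day 8 list (red), for 4573 kept, 3190 lost and 407 gained promoters of genes with 1 annotated start. Both lists peak 0.1 kb after the start of kept promoters. Gained promoters, whose window holds no vehicle peak by definition, show vehicle peaks in up to 44.7% of genes just after the start.

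Promoters of glucocorticoid receptor targets were largely kept, but not all of them. Of 23 listed autosomal targets, 20 had a vehicle promoter peak, 17 kept it (85.0%, 64.0%–94.8%), 3 lost it and none gained one. The background over all genes was 60.4% kept. All genes in the same deciles of vehicle promoter tags kept a peak in 87.5% of cases. Klf9 held 182.5 tags in vehicle and 114.7 at day 8, on chromosome 19 from 23139573 to 23143690 at day 8. Pdk4, a kinase that restrains pyruvate dehydrogenase, held 51.9 and 31.5 tags. Glul, glutamine synthetase, held 74.3 and 57.7 tags. Nfkbia, the inhibitor of NF-κB, held 38.0 and 35.5 tags. The lost promoters were those of Mt1 and Mt2, metal-binding metallothioneins, and Angptl4, an inhibitor of lipoprotein lipase. They held 42.4, 72.7 and 56.6 tags in vehicle, and their nearest day 8 peaks were 35.4, 41.9 and 20.7 kb away. Fkbp5, a classic target that encodes a receptor co-chaperone, had no promoter peak in either list. Its gene and the 10 kb around it held 11 vehicle peaks and 1 day 8 peak.

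The median log2 ratio of promoter tags of the 17 kept targets was -0.72, beside -1.09 for all 6078 kept promoters. Of the 17, 14 lay above that median over all genes. Only Dusp1, a phosphatase that shuts off MAP kinases, had more tags at day 8 (139.3) than in vehicle (124.9), as did 6.89% of all kept promoters. The Dusp1 peak was 3408 bp wide in vehicle and 7245 bp wide at day 8, so its day 8 tags were counted over a wider region. Its fold over input was lower at day 8 (5.59) than in vehicle (7.26). Dusp1 was chosen after its values were seen. The ratios were not tested.

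In the atrophy program, 14 of 17 genes with a vehicle promoter peak kept it (82.4%, 59.0%–93.8%), 3 lost it and 2 gained one, read against 60.4% kept and 5.03% gained over all genes and 79.3% kept in the same deciles. Kept promoters included Foxo3, a transcription factor of protein breakdown (101.8 tags in vehicle, 67.6 at day 8), Map1lc3b, an autophagosome protein (77.8 and 34.3), Bnip3, a mitophagy receptor (67.0 and 16.8), and Nedd4, a ubiquitin ligase. Traf6, an adaptor ligase of NF-κB signaling, and Gadd45a, a stress-response protein, lost theirs from 13.6 and 12.0 tags. At Mstn, the secreted brake on muscle growth, the day 8 peak lay on chromosome 1 from 53061655 to 53063036, with 23.7 tags and a fold over input of 7.76. It began just after the start at 53061640. A vehicle peak lay 0.079 kb outside the promoter window. At Acvr2b, the day 8 peak held 10.3 tags, and a vehicle peak lay 0.387 kb away.

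Of the IGF1 and PI3K signaling genes, 19 of 24 kept a promoter peak (79.2%, 59.5%–90.8%), beside 60.4% of all genes and 63.9% of all genes in the same deciles of vehicle tags. These included Rptor, a subunit of mTORC1 (37.6 tags in vehicle, 17.8 at day 8), Pik3c2a and Pik3r1, which encode PI3K subunits (58.8 and 33.7, and 81.6 and 71.7), and Akt1, the kinase downstream (31.6 and 6.55). Igf1, the growth factor itself, lost a promoter peak of 15.2 tags, and its nearest day 8 peak was 61.3 kb away. Pik3cb, another PI3K catalytic subunit, Rps6kb1, the S6 kinase, and Itga3, an integrin, also lost theirs.

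Calcium handling genes kept 18 of 20 promoter peaks (90.0%, 69.9%–97.2%), near the 86.4% of all genes in the same deciles. Examples were Jph1, which couples T-tubules to the sarcoplasmic reticulum (72.7 tags in vehicle, 30.5 at day 8), and Cacna2d1, a calcium channel subunit (16.8 and 17.1). Stac3, an adaptor of excitation-contraction coupling, lost a peak of 39.9 tags, with no day 8 peak within 73.8 kb. Orai1, the store-operated calcium channel, lost one of 84.8 tags, with a day 8 peak 4.04 kb away. Atp2a2, the slow-fiber calcium pump, and Cacna1h, a T-type calcium channel, gained narrow peaks of 7.79 and 9.35 tags. Vehicle peaks lay 0.039 and 0.522 kb outside their windows. Of all genes without a vehicle promoter peak, 5.03% gained one.

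Sarcomere genes kept 27 of 35 promoter peaks (77.1%, 61.0%–87.9%), above the 60.4% of all genes and below the 82.0% of all genes in the same deciles. Their median log2 ratio was -1.42, beside -1.09 for all kept promoters. Among peaks at least 4-fold over input they kept 14 of 30 (46.7%), beside 42.5% of all genes, and without high-input peaks 14 of 23 (60.9%), beside 58.8%. Mybpc2, fast myosin-binding protein C (155.6 tags in vehicle, 74.5 at day 8), and Tpm3, a tropomyosin (120.8 and 32.1), were kept, as was Smyd1, a myosin chaperone (63.9 and 8.42). The M-band genes Myom1, Myom2 and Myom3 all lost their promoter peaks. Myom2 held 111.3 tags in vehicle, and a day 8 peak lay 0.022 kb outside its window. Ankrd2, a stretch-responsive protein, lost 53.4 tags. Tcap, which caps titin at the Z-disc, gained a peak of 45.2 tags 0.010 kb from a vehicle peak, and Myot, myotilin, gained one of 50.5 tags 0.588 kb from a vehicle peak. Ttn, titin, gained peaks of 14.3 tags in all, and its nearest vehicle peak was 5.02 kb from the window.

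Most promoters of fuel metabolism genes were kept. Glucose and glycogen genes kept 23 of 28 promoter peaks (82.1%, 64.4%–92.1%), beside 74.3% in the same deciles, among them Gpi1, a glycolytic isomerase (23.1 tags in vehicle, 24.9 at day 8). Gpd1, Hk1, Ppp1r3c and Tbc1d4 lost theirs. Slc2a1, a glucose transporter, and Tpi1, triose phosphate isomerase, gained peaks of 10.6 and 53.3 tags. Vehicle peaks lay 0.416 and 0.135 kb outside their windows. Respiratory chain genes kept 38 of 46 (82.6%, 69.3%–90.9%), beside 74.0% in the same deciles, among them Sdhc of complex II (68.3 and 34.9) and Atp5j of ATP synthase (136.6 and 57.4). Ndufa10 of complex I lost a peak of 52.8 tags with no day 8 peak within 36.3 kb. Cox7a1, a muscle subunit of complex IV, gained one of 21.2 tags, with a vehicle peak 0.287 kb outside its window. Lipid metabolism genes kept 25 of 38 (65.8%, 49.9%–78.8%), near the 60.4% of all genes and the 67.1% in the same deciles, and 10 of 32 (31.2%) with a fold over input of at least 4, beside 42.5% of all genes. Pnpla2, the adipose triglyceride lipase (82.9 and 62.3), was among those kept. Lpl, lipoprotein lipase, lost a peak of 83.5 tags, with a day 8 peak 0.073 kb outside its window. Etfdh, Slc27a4 and Mlycd also lost theirs.

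Myogenic regulators kept 20 of 22 promoter peaks (90.9%, 72.2%–97.5%), beside 76.2% of all genes in the same deciles of vehicle tags, and 10 of 17 (58.8%) with a fold of at least 4. Myf6, which encodes MRF4 (50.6 tags in vehicle, 24.3 at day 8), Mef2a (93.9 and 65.5) and Tead1 (73.1 and 23.1) were among those kept. Prox1 and Tead4 lost theirs, and Vgll2, a TEAD cofactor, gained one, with a vehicle peak 2.33 kb outside its window. Circadian clock genes kept 18 of 19 (94.7%, 75.4%–99.1%), beside 82.5% in the same deciles. Nfil3, a clock repressor, held 53.4 tags in vehicle and 69.8 at day 8, and its peak widened from 952 to 3778 bp. Cry1 held 55.0 and 27.7 tags and Nr1d2, REV-ERBβ, 68.3 and 44.6. Proteasome genes kept 25 of 32 (78.1%, 61.2%–89.0%), beside 66.6% in the same deciles. Ribosomal protein genes kept 51 of 69 (73.9%, 62.5%–82.8%), beside 73.3% in the same deciles, and 21 of 55 (38.2%) with a fold of at least 4. Neuromuscular junction genes kept 4 of 10 (40.0%, 16.8%–68.7%), near the 44.4% in the same deciles, and 1 of 8 (12.5%) with a fold of at least 4. Chrna1 and Chrnb1, subunits of the acetylcholine receptor, Ache, acetylcholinesterase, and Erbb2 were among those lost, and Rapsn and Lrp4, which take part in clustering the receptor, were kept. Agrn, the nerve-derived clustering signal, had a promoter peak in each list, but at different starts, so that no peak was shared. Trim63, Fbp2 and Psmb3, which were chosen after their values were seen, also had promoter peaks that shared no base between the lists. At Trim63 both peaks touched the window of the same start.

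Over the 13 lists together, 293 of 373 genes with a vehicle promoter peak kept it (78.6%, 74.1%–82.4%). All genes in the same deciles of vehicle promoter tags kept a peak in 73.8% of cases. These lists were chosen with earlier results of these data known, so the difference from the 60.4% of all genes is a description.

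Markers of myofibers and of other cell types were set side by side. Myofiber markers had a promoter peak for 8 of 10 genes in each list, and 7 of 8 vehicle peaks were kept (87.5%, 52.9%–97.8%), beside 83.4% in the same deciles. This share was 3 of 8 (37.5%) with a fold over input of at least 4, beside 42.5% of all genes, and 1 of 2 at equal length by fold. The median log2 ratio of promoter tags of the 7 kept myofiber markers was -1.42, beside -1.09 for all kept promoters, and 2 of the 7 lay above that median. Ryr1, the calcium release channel, held 45.9 tags in vehicle and 44.6 at day 8. Its peak was 1515 bp wide in vehicle and 2561 bp at day 8, and its fold over input was 5.21 and 4.38. The fast myosin gene Myh4 lost a peak of 17.4 tags, with a day 8 peak 0.038 kb outside its window. Of the 10 endothelial markers, all had a vehicle promoter peak and 2 kept it (20.0%, 5.67%–51.0%), beside 66.9% of all genes in the same deciles of vehicle tags. With promoters widened to 2.5 kb around a start, 5 of 10 kept one (50.0%), beside 58.8% of all genes, and with a fold of at least 4 none of 7 did. Pecam1, the adhesion molecule CD31, lost a peak of 30.4 tags on chromosome 11 from 106715191 to 106715822, with a day 8 peak 0.970 kb outside its window. Tek, the angiopoietin receptor, lost 34.5 tags and Emcn lost 25.3. Flt1 lost 39.9 tags, with a day 8 peak 0.159 kb outside its window. Chosen after their values were seen, Erg, an endothelial ETS factor, lost 66.4 tags and Cdh5, VE-cadherin, lost 40.5. Of the 2 kept, Sox17 held 29.7 tags in vehicle and 12.5 at day 8. Egfl7, also chosen after its values were seen, held 107.2 and 7.48. Peaks within endothelial marker genes and 10 kb around them covered 12.4% as many bases at day 8 as in vehicle, against 28.9% for all genes and 40.3% for myofiber markers.

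Smooth muscle and pericyte markers lost 4 of 4 promoter peaks, where all genes in the same deciles kept 60.1%, among them Tagln (39.2 tags) and Myh11 (34.2 tags), which encode transgelin and smooth muscle myosin. Immune cell markers lost 3 of 3, where all genes in the same deciles kept 23.8%. Fibroblast markers lost 2 of 2, Col1a1 (38.6 tags) and Col6a1 (21.8 tags), where all genes in the same deciles kept 58.3%. Fbn1 gained a narrow peak of 7.17 tags, with a vehicle peak 0.001 kb outside its window. With promoters widened to 2.5 kb, immune and fibroblast markers each kept 2 of 5 (40.0%). Satellite cell markers kept 2 of 4, near the 51.7% in the same deciles. Schwann cell markers kept 3 of 5, near the 64.5% in the same deciles, and peaks that touch promoters of neighboring genes were counted for each gene. The only adipocyte marker with a peak, Lipe, kept it. Lipe was named after its values were seen and is also in the lipid metabolism list. Together, 29 of the 62 markers of the 7 other cell types had a vehicle promoter peak and 8 kept it (27.6%, 14.7%–45.7%), beside 59.3% in the same deciles of vehicle tags. With the wider promoter this share was 42.1%. In bulk chromatin, fewer nuclei of a cell type and less acetylation per nucleus cannot be told apart, and the part of cell composition in the loss of peaks was not tested.

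**Figure D4:**
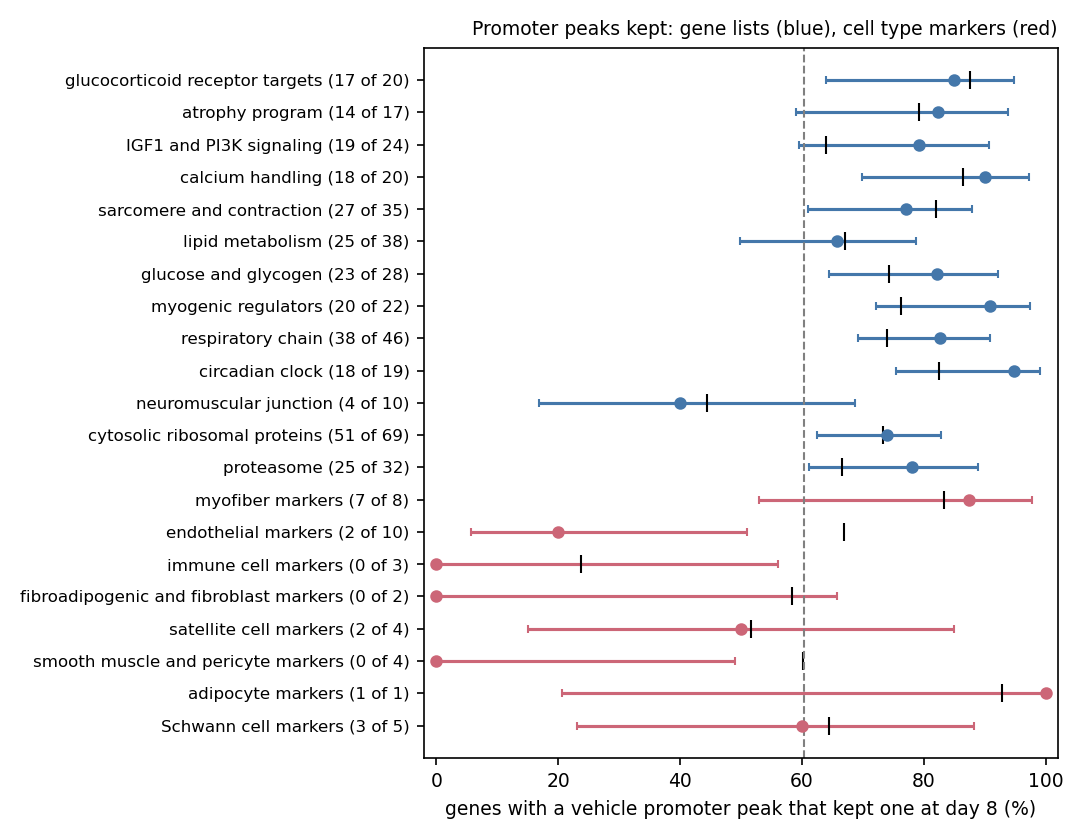
Percentage of genes with a vehicle promoter peak that kept one at day 8, with Wilson 95% CIs, for the 13 gene lists (blue) and 8 cell type marker lists (red). Short black bars show the share over all genes in the same deciles of vehicle promoter tags and the dashed line shows all genes (60.4%). Endothelial markers lie at 20.0% and smooth muscle markers at 0, left of the line, and 12 of the 13 gene lists lie right of it.

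Gained peaks had a different base composition from kept and lost peaks. The median GC content was 55.3% in kept vehicle peaks (quartiles 51.4% and 59.6%), 49.7% in lost peaks (47.3% and 52.5%) and 42.3% in gained peaks (37.5% and 47.9%). Tiles of 500 bases along chromosome 1 had a median of 41.0%. The order held within distal peaks, at 52.9% for kept, 49.4% for lost and 41.7% for gained peaks. Gained promoter peaks had a median of 53.5%. Gained peaks at score 15 had a median of 40.7%, and those at scores 20–24 had 48.8%. Repeats, as soft-masked in the reference, made up a mean of 11.4% of kept vehicle, 19.3% of lost and 22.3% of gained peaks. With lists of equal length by fold over input the order of gained (48.9%) and lost (47.7%) peaks was turned.

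Of the 9583 gained peaks, 5920 (61.8%) were in none of the other 6 lists of the series. These had a median GC content of 39.5%, and promoters made up 0.828% of them. The 3663 gained peaks found in 1 or more other lists had a median of 47.9%, and promoters made up 8.14%. Only 67 gained peaks were in all 6. The male day 6 list held 10.6% of gained peaks (9.98%–11.2%) and the male day 4 list 3.43%, and the female lists held 8.93% (vehicle), 21.1% (day 4), 29.2% (day 6) and 27.7% (day 8). The male day 6 list held 66.0% of kept vehicle peaks and 5.85% of lost peaks. Longer lists overlap more peaks, and the female day 6 list was the longest, with 121551 autosomal peaks. The male day 4 list had 17339.

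**Figure D5:**
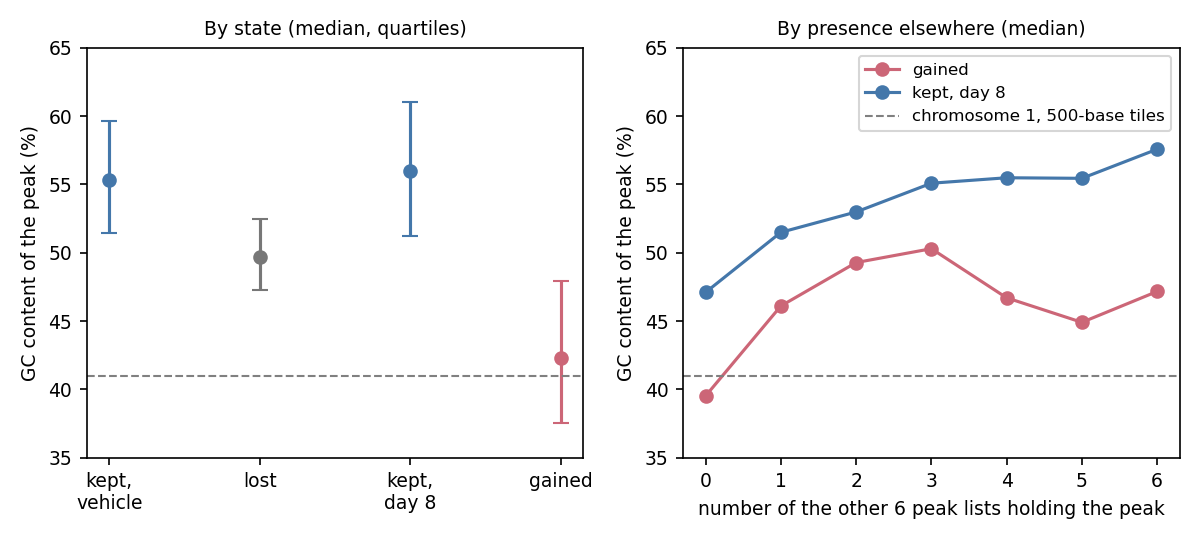
Left, GC content of peaks (%) by state, with medians as points and quartiles as bars. Right, median GC content of gained (red) and kept (blue) day 8 peaks by the number of the other 6 lists that hold the peak. The dashed line is the median of 500-base tiles of chromosome 1 (41.0%), and gained peaks in no other list lie below it at 39.5%.

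Motif matches in the central 300 bases of distal peaks differed with state. The E-box CAGCTG was present in 20.8% of kept vehicle peaks (19.7%–21.8%), 20.0% of lost peaks (19.7%–20.3%) and 12.5% of gained peaks (11.9%–13.3%), against 10.3% of 300-base tiles of chromosome 1. SP/KLF GGGCGG was present in 20.8%, 6.35% and 3.50%, against 2.44% of tiles, and ETS CCGGAA in 9.24%, 4.20% and 2.33%, against 2.07%. MEF2 matches were present in 1.26% of kept (0.998%–1.58%), 0.370% of lost (0.327%–0.419%) and 0.913% of gained peaks (0.733%–1.14%), against 0.705% of tiles. The glucocorticoid receptor motif ACANNNTGT was present in 7.12% of kept, 9.12% of lost and 10.5% of gained peaks (9.85%–11.1%), against 9.88% of tiles. AP-1 TGANTCA was present in between 8.50% and 9.03% of the 3 kinds, against 8.93% of tiles. The share of gained peaks with ACANNNTGT was thus within counting error of the tiles, and the share with CAGCTG was above it. That excess was not found in all gained peaks. Among gained peaks of every class, CAGCTG was present in 9.95% of the 5920 in no other list. It was present in 18.3% of the 3663 in 1 or more other lists. Matches of different motifs may share bases, and both strands were searched.

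Among distal peaks, the 5 gained ones of highest score lay in an intron of Ogdhl, a 2-oxoglutarate dehydrogenase–like enzyme (2 peaks), and in intergenic sequence nearest to Elobl, Hjurp and Smok2a. The Ogdhl peaks ran from 32325649 to 32327714 and from 32331861 to 32334032 on chromosome 14, with 57.7 and 62.3 tags. The lost ones of highest score included peaks in introns of Ifngr1, the interferon gamma receptor (46.2 tags), and Gng7, a G protein subunit (51.9 tags), and in intergenic sequence nearest to Dgkz, a diacylglycerol kinase (54.7 tags), and Fos, an AP-1 subunit (53.8 tags). The Fos-proximal peak was 36.3 kb from the start. The Ifngr1 peak was centered 0.400 kb from a start, and the gene counted as keeping a promoter peak with no base shared between the lists. Lost peaks were spread over 15014 nearest genes, up to 65 at Med13l, a Mediator subunit, followed by Bcl11b, Septin9, Vrk1 and Ajap1 with between 59 and 62. Gained peaks were nearest to 5445 genes, of which 5079 also had a vehicle peak assigned (93.3%). As background, lost vehicle peaks alone were assigned to 15014 of all 20021 genes. Of gained peaks, 17.3% lay within 1 kb and 53.1% within 10 kb of a vehicle peak. The shares expected at random positions were not computed. The genes nearest to most gained peaks, chosen after their values were seen, were Cdh8 (24 peaks), Pcdh7 (20), Adgrl3 (17) and Lrrc4c (17), which encode adhesion proteins and span long genomic intervals. By chromosome, the kept share ranged from 10.2% (chromosome 12) to 14.2% (chromosome 11), and the gained share ranged from 35.4% (chromosome 11) to 56.2% (chromosome 3).

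The study also measured glucocorticoid receptor occupancy by ChIP-qPCR near several genes, in whole quadriceps and sooner after the last injection. With weekly prednisone it reported higher occupancy near IGF1/PI3K and calcium-handling genes in males. Near lipid metabolism genes, occupancy rose in females and not in males. Promoter H3K27ac of myofibers at day 8 is a different measure, preparation and time. Among the genes measured there, Akt1, Pik3c2a, Pik3ca, Tnnc1 and Slc27a1 kept a promoter peak. Tnnc1, slow troponin C, held 64.2 tags in vehicle and 22.1 at day 8, and Slc27a1, a fatty acid transporter, held 57.5 and 38.0. Pik3ca, a PI3K catalytic subunit, held 36.7 and 29.3. Cacna1h gained a promoter peak, with 15 vehicle peaks and 1 day 8 peak over the gene and 10 kb around it. Esr1, the estrogen receptor, lost a promoter peak of 10.4 tags. Tnnt1, slow troponin T, and the lipid droplet genes Cidea and Cidec had no promoter peak in either list.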

How the data were processed

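H3K27ac ChIP-Seq of isolated quadriceps myofibers was analyzed from 1 deposited peak list per group, with 2 H3K27ac libraries and 1 input library behind each. The authors aligned trimmed reads to mm10 (Bowtie2 2.2.6 in the submitters' processing notes) and called histone-style peaks with HOMER against input. The sources used here do not say how a group's libraries were merged. The normalized tag count is a signal deposited by the authors, scaled to 10 M tags. The deposited findPeaks score is a tag number of the peak, and input tags and tags scaled to input depth (used for the depth of the input) are deposited per peak. The deposited fold over input is a ratio, at least 2 in both lists. Deposited p-values were not used.

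Overlaps of 1 bp, classes of the peak center (43783 curated RefSeq transcripts of GRCm38.p6, with promoter before termination site, exon, intron and intergenic) and nearest starts were computed with Python 3.11.15, numpy 2.4.6, pandas 2.3.3 and scipy 1.17.1. A gene kept a promoter peak when its promoter windows touched a peak in each list, the same or not, and promoter tags were summed over the peaks touched. Overlaps were tested on simulated peaks, where 3000 of 3000 equalled those of bedtools 2.31.1. The comparison, members and lists were chosen with earlier results of these data known. Genes were named by score, up to 4 kept, 4 lost and 3 gained per list, 8 of each over all genes, and 5 gained and 5 lost distal peaks, leaving out peaks above the 99th percentile of input in the list whose score ranked them (vehicle for kept and lost, day 8 for gained). The day 8 peaks of Klf9, Mybpc2, Pnpla2 and Dusp1 were above it. The 5 genes nearest to most lost peaks were also named. Sex chromosomes were not analyzed here. A few genes that this rule names are not reported here. Alternatives were other overlap rules, lists of equal length, a fold of at least 4, no peaks of high input, and wider promoters. No test between groups was possible.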

Additional observations from a re-analysis of the deposited data

How the results depend on the processing

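No paired analysis was possible because each group had 1 list, so no library could be left out or paired. Every alternative moved the 4 main shares beyond the counting interval of the reported value. The shares were, in order, vehicle peaks kept (12.0%), day 8 peaks gained (47.1%), gained peaks at promoters (3.62%) and genes keeping a promoter peak (60.4%). With 50% of the peak covered, the first 3 were 7.61%, 53.8% and 5.40%, and with a gap of up to 1 kb allowed 15.2%, 38.9% and 2.55%. At equal length they were 30.9%, 67.6%, 9.85% and 70.5% by score, 40.3%, 57.5%, 6.72% and 73.8% by tag count, and 15.7%, 84.0%, 13.7% and 75.1% by fold over input. With a fold of at least 4 they were 9.70%, 65.9%, 5.96% and 42.5%, and without peaks of highest input 11.1%, 52.0%, 4.61% and 58.8%. With promoters within 2.5 kb of a start, the last 2 were 11.2% and 58.8%. The cause of these differences was not tested. Genes of the 13 lists kept promoter peaks more often than all genes, and markers of other cell types less often, under the main setting and each of the 6 alternatives that gave gene values (55.3%–89.8%, 42.5%–75.1% and 20.0%–50.0%). These list alternatives were added after the data were seen. Single lists did not all keep that order, and myofiber markers (37.5%), lipid metabolism (31.2%) and ribosomal protein genes (38.2%) were below all genes (42.5%) with a fold of at least 4. H3K27ac depth was nearly the same in vehicle and day 8 (31.6 and 32.1 M tags), while input depth was 26.2 and 19.6 M. Without replicate values, input depth and antibody efficiency cannot be told apart from treatment.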
